A study of Rattus norvegicus with 6 samples.

Results

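The receptors described here are 8 integrin subunits (Itga1, Itga5, Itga6, Itga7, Itgav, Itgb1, Itgb3 and Itgb5) and the collagen-binding kinase Ddr2. They were chosen by gene symbol, through probe sets that the platform annotation assigns to exactly 1 gene, and all 9 genes were measured, by 21 of the 31042 probe sets tested. The array measured 14217 genes in this way. The tissue was rat Achilles tendon, taken 1 day or 7 days after birth, with 3 arrays at each age. Every sample combined total RNA of at least 2 rats, so the spread between arrays is a spread between pools. Neither group carried a treatment or genetic change in the labels, and no strain or sex is given in the sources used here.

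Integrins are membrane receptors built from 1 alpha and 1 beta subunit, which join the matrix outside the cell to the actin cytoskeleton inside it. The beta subunit binds talin and kindlin, and the pair of subunits sets the ligand. The Itgb1 product pairs with those of Itga1 (collagen), Itga5 (fibronectin), Itga6 and Itga7 (laminins), while the product of Itgav pairs with those of Itgb3 and Itgb5 to bind vitronectin and other proteins with an RGD motif. The Itgav product can also pair with that of Itgb1. Ddr2 is a receptor tyrosine kinase that is activated by fibrillar collagen, the main load-bearing material of tendon.

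The defining markers of tendon were high on every array. Scx, a transcription factor of tendon cells, read between 603 and 897 and tenomodulin, Tnmd, between 2279 and 6822, while the bacterial trp probe sets used as a negative control read at most 4.76. Skeletal muscle RNA was also present: the summed intensity of 11 measured muscle markers of 12 listed was 45899 to 57025 on day 1 but 26924 to 40923 on day 7, and none was at 0. The summed intensity of 5 epidermal markers was 5533 on day 1 replicate 1 and between 135 and 377 on the other arrays. Median intensity lay between 20.5 and 21.1 on each array. The tissue holds several cell types, and in bulk RNA fewer cells of a type and less RNA per cell cannot be told apart.

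Among the receptors, Itga5 fell by day 7 and none rose, at an adjusted p under 0.05 (limma, Benjamini-Hochberg over all probe sets). Ddr2 and Itgb5 stood higher on every day 7 array than on any day 1 array, and Itga5 and Itgb3 lower. Itga1, Itga6, Itga7, Itgav and Itgb1 overlapped between the ages. Over all genes, 3.15% were called lower and 1.93% higher, or 5.08% either way, so that 1 call among 9 receptors is a small count. The ages did not overlap for 4 of the 9 receptors (2 higher and 2 lower) and for 33.1% of all genes (14.0% higher and 19.1% lower), and that count is given as a description. The median log2 change of the 9 was 0.13 (range -0.56 to 0.75), against -0.01 over all genes. After quantile normalization the calls over all genes were 352 higher and 320 lower, against 274 and 448 on the deposited values.

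**Figure D1:**
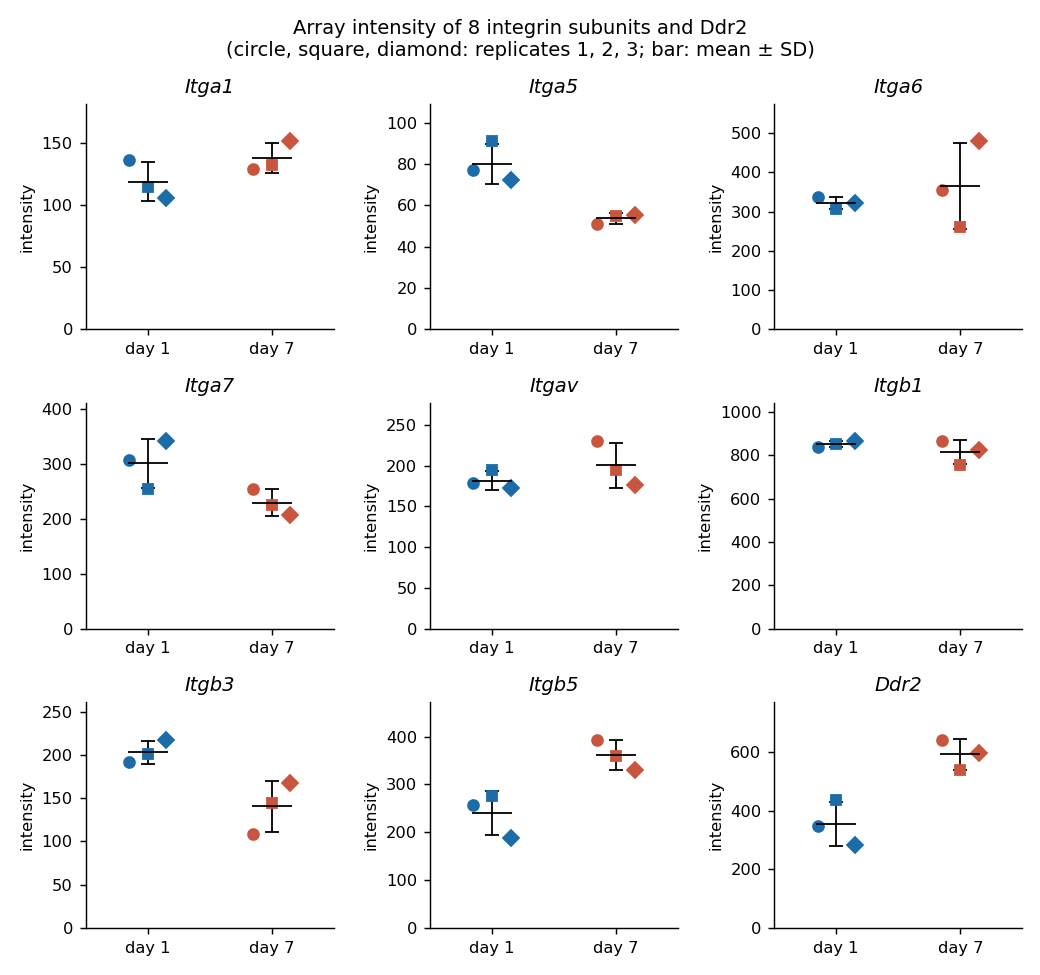
Intensity (linear scale, from 0) of the probe set that represents each receptor gene, by age. Points are single arrays, the long bar is the mean and the error bar the SD over 3 arrays. Ddr2 and Itgb5 lie higher on day 7 and Itga5 and Itgb3 lower, without overlap, while the other 5 genes overlap.

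Itga5 encodes the alpha subunit of the classical fibronectin receptor. Its intensity was 77.0, 91.1 and 72.3 on day 1 replicates 1, 2 and 3 and 50.9, 55.0 and 55.2 on day 7. Every day 7 array lay below every day 1 array, and the day 7 values were close to each other. The mean was 80.2 ± 9.76 on day 1 and 53.7 ± 2.46 on day 7 (SD, n = 3), which is 1.48-fold lower on the log2(value + 1) scale (log2 change -0.56, SE 0.12; limma adjusted p = 0.0490). Itga5 had 1 probe set, so no other one could serve as a check. The adjusted p lay close to the threshold, and the call was lost without any 1 of the 6 arrays (log2 change from -0.63 to -0.47, adjusted p from 0.0788 to 0.165). It was also lost after quantile normalization (adjusted p = 0.0910).

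Fibronectin itself, Fn1, had a log2 change of 0.13 (SE 0.18; limma adjusted p = 0.701), with a 95% interval from -0.28 to 0.55. The gene whose profile over the 6 arrays was most like that of Itga5 was the chemokine receptor Cxcr4, with a root mean square difference of 0.06 between the centred log2 values. Srrt and Pabpn1, which act in RNA processing, came next, both at 0.06. These were the nearest of 5586 genes that had a mean log2 value of at least 5 and were lower on day 7.

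Itgb1 encodes a beta subunit that can pair with the products of all 5 alpha subunits described here. Its intensity was 839, 849 and 866 on day 1 replicates 1, 2 and 3 and 867, 756 and 824 on day 7. The highest and the lowest array were both from day 7, so the ages overlapped. The log2 change was -0.06 (SE 0.10; limma adjusted p = 0.760), with a 95% interval from -0.30 to 0.18, and that of its other probe set was -0.05. The sign was positive after quantile normalization (0.02). That interval includes 0 and is not a limit of detection, while the interval of Itga5 ran from -0.84 to -0.28. Whether the 2 changes differ was not tested.

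RefSeq promoters of the rat assembly GRCr8 matched 5 of the 9 receptors. The 250 bases before the start of Itga5 (chr7:136381306-136381555, minus strand) and of Itgb1 (chr19:73602027-73602276, plus strand) are shown because these subunits pair in the fibronectin receptor and only Itga5 was called. Capitals mark GC boxes (GGGCGG on either strand).
Itga5: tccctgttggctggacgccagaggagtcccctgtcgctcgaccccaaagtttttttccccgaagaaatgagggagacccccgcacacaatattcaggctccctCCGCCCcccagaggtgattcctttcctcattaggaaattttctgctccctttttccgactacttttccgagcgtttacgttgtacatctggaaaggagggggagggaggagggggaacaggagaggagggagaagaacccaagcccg
Itgb1: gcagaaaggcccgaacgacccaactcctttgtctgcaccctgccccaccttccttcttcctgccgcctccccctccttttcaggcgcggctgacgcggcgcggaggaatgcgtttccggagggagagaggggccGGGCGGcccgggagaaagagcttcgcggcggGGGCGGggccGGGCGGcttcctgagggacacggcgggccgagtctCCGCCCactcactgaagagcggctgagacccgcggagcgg
Itga5 held 1 GC box and 55.6% G and C, and Itgb1 held 4 GC boxes and 71.2% G and C. Over 33469 promoters of the same length the median was 51.2% G and C, and 30.5% held a GC box. Neither held an AP-1 site (TGANTCA, in 6.34% of promoters), a CCAAT box (CCAAT, 34.0%), a TATA box (TATAAA, 12.9%) or an Egr1 site (GCGTGGGCG, 0.478%), all searched on both strands. No 2 matches overlapped. A match here is a run of letters and says nothing of a factor at work.

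Itga1 encodes the collagen-binding alpha subunit. It read 136, 114 and 105 on day 1 replicates 1, 2 and 3 and 129, 132 and 151 on day 7, so day 1 replicate 1 lay above the lower day 7 arrays. The log2 change was 0.21 (SE 0.13; limma adjusted p = 0.386), with a 95% interval from -0.09 to 0.52.

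Ddr2, the other collagen receptor of the group, had the largest difference of the 9 genes. It read 347, 435 and 284 on day 1 replicates 1, 2 and 3 and 642, 539 and 597 on day 7, with no overlap and with day 1 replicate 2 nearest to the day 7 arrays. The means were 355 ± 76.0 and 593 ± 51.8 (SD, n = 3), a ratio of 1.69 on the log2(value + 1) scale (log2 change 0.75, SE 0.17; limma adjusted p = 0.0523). This missed the threshold by little. Ddr2 passed in 6 of 15 alternatives, among them quantile normalization (adjusted p = 0.0499) and the fit without day 1 replicate 2 (log2 change 0.91, adjusted p = 0.0361). Of the 6 fits that left out 1 array it passed in that 1 only (adjusted p up to 0.173). The mean of its probe sets gave 0.565 (adjusted p = 0.116). One of its other probe sets also had no overlap (log2 change 0.58, adjusted p = 0.0850). Another one did overlap, with 93.2 on day 7 replicate 2 and 148 on day 1 replicate 2 (0.36, adjusted p = 0.497). On the same arrays, all 7 measured tenocyte markers of 9 listed had a positive log2 change (median 0.51), and 1 of them, the collagen-binding proteoglycan gene Dcn, was called higher (0.79, adjusted p = 0.0277). Their summed intensity was 26047 to 43805 on day 1 and 46941 to 60416 on day 7, without overlap and with none at 0. Col1a1 and Col1a2, whose products are themselves fibrillar collagen chains, made up most of each sum. Scx (log2 change 0.13, adjusted p = 0.646) and Thbs4 (0.31, adjusted p = 0.649) overlapped between the ages. The part of tenocyte content in the Ddr2 difference was not tested.

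Ddr1, the related collagen receptor kinase of epithelia, had a difference of the opposite sign. It read 94.8, 88.0 and 122 on day 1 replicates 1, 2 and 3 and 53.8, 70.8 and 47.0 on day 7. The ages did not overlap (log2 change -0.83, SE 0.18; limma adjusted p = 0.0540). Ddr1 had 2 probe sets, and only the brightest is given here. Its values ranked the arrays in the same order as the muscle marker median, and the part of muscle in them was not tested. Itga11, another collagen-binding alpha subunit, read between 20.3 and 44.4 on all arrays with a log2 change of 0.05 (SE 0.28). Both were singled out after their values were seen. Of 7 fibrillar collagen chains that these receptors can bind, none was called, and 6 had a positive log2 change (median 0.43). The 3 with the smallest adjusted p were Col2a1 (log2 change 1.33, adjusted p = 0.0932), Col11a1 (1.00, adjusted p = 0.0964), both of cartilage as well as young tendon, and Col1a2 (0.43, adjusted p = 0.170). The Col2a1 value depended on the probe set: another had no overlap (0.90), a further one overlapped between the ages (0.18), and the mean of its probe sets gave 0.80 (adjusted p = 0.192). The other probe sets of Col11a1 had log2 changes of 1.35 without overlap and 0.47 with overlap. The summed intensity of 4 measured cartilage markers of 5 listed was 578 to 1515 on day 1 and 1594 to 3199 on day 7, with none at 0, but Col2a1 is itself on that list and made up most of each sum. Of the others, Acan overlapped between the ages (214 on day 1 replicate 2 and 180 on day 7 replicate 3). Matn1 had a log2 change of 0.02 and Col9a1, at 19.6 or less on all arrays, one of 0.74, and neither was called. The part of cartilage in the differences of Ddr2 and of the collagen chains was not tested.

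**Figure D2:**
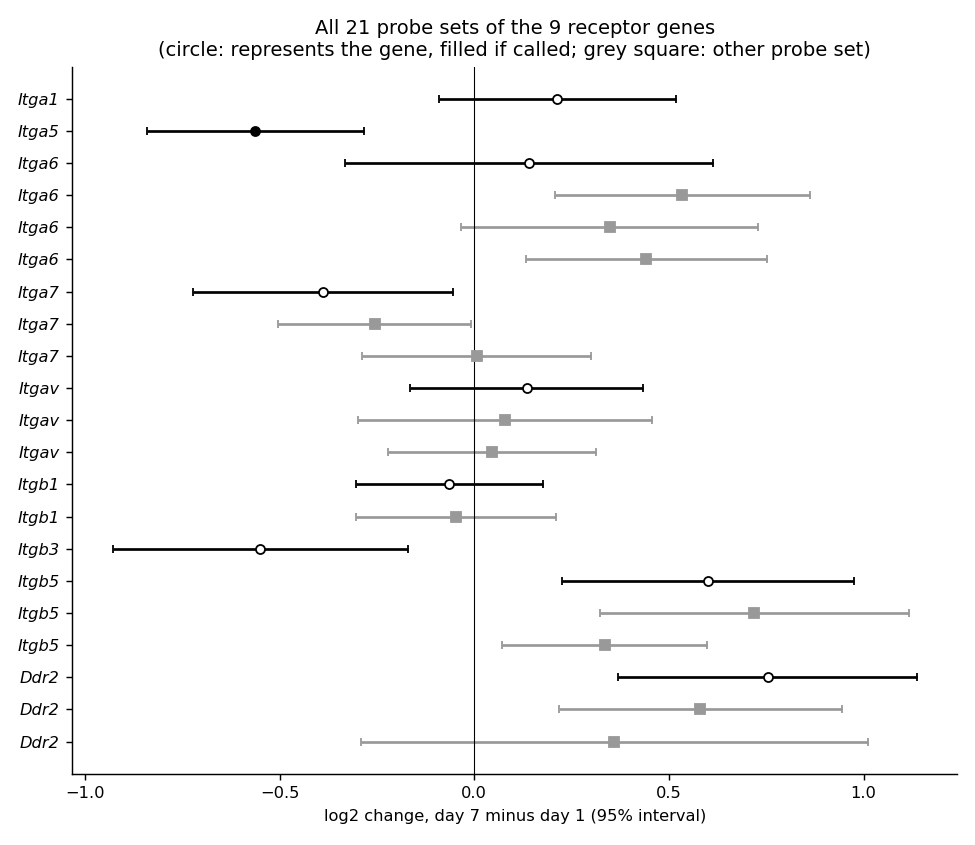
Log2 change (day 7 minus day 1) with its 95% interval from limma for all 21 probe sets of the 9 genes. Circles represent the gene (filled where the adjusted p was under 0.05, which holds for Itga5) and grey squares are other probe sets. The intervals of Itgb5 lie above 0 for all 3 probe sets and those of Itgav and Itgb1 span 0.

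Itgav encodes the alpha subunit shared by several RGD-binding receptors. It read 178, 194 and 173 on day 1 replicates 1, 2 and 3 and 231, 195 and 176 on day 7, where day 7 replicates 2 and 3 lay within or beside the day 1 range. The log2 change was 0.13 (SE 0.13; limma adjusted p = 0.584), with a 95% interval from -0.16 to 0.43, and its other probe sets had changes of 0.08 and 0.05.

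The beta partners of Itgav differed in sign. Itgb5 read 257, 276 and 188 on day 1 replicates 1, 2 and 3 and 393, 360 and 330 on day 7, without overlap. Its log2 change was 0.60 (SE 0.16; limma adjusted p = 0.0845), with a 95% interval from 0.23 to 0.98. The other probe sets of Itgb5 also had no overlap, with log2 changes of 0.72 (adjusted p = 0.0633) and 0.33, the last at intensities of 8.05 or less. Itgb5 passed in none of 15 alternatives (adjusted p from 0.0513 to 0.233).

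Itgb3, which also forms the platelet fibrinogen receptor with the product of Itga2b, read 191, 201 and 218 on day 1 replicates 1, 2 and 3 and 109, 145 and 168 on day 7. All day 7 arrays were lower, and replicate 1 was the lowest. The log2 change was -0.55 (SE 0.16; limma adjusted p = 0.106), with a 95% interval from -0.93 to -0.17, on the other side of 0 from that of Itgb5. The difference between the changes of Itgb5 and Itgb3 was not tested. Day 7 replicate 1 was also the lowest array for Itga2b (31.3, against 44.6 to 55.2 on the others) and for the platelet factor Pf4 (248, against 886 to 959). The summed intensity of 4 measured platelet markers of 5 listed was 972 to 1011 on day 1 and 306 to 1041 on day 7, with none at 0, and most of it was Pf4. The other platelet markers did not single out that array: Gp9 read 17.2 there and 17.3 on day 7 replicate 2, and Ppbp read 9.56, above 3 of the other arrays. Without day 7 replicate 1 the log2 change of Itgb3 was -0.38 (adjusted p = 0.232), and the part of platelets in it was not tested.

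Of 16 measured ligands of Itga5 or Itgav receptors among 18 listed, 1 was called, Edil3, which rose, and the median log2 change was 0.15. Edil3, a secreted protein with an RGD motif, read 6.21, 6.29 and 6.25 on day 1 replicates 1, 2 and 3 and 9.75, 8.30 and 9.69 on day 7 (limma adjusted p = 0.0491). These values lie close to the negative control, so no fold change is given. Its call was lost without any 1 array (adjusted p from 0.0529 to 0.165).

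Itga7 encodes the laminin-binding subunit of skeletal muscle fibres and their junctions with tendon. It read 306, 254 and 342 on day 1 replicates 1, 2 and 3 and 255, 226 and 206 on day 7, where day 7 replicate 1 reached the lowest day 1 array. The log2 change was -0.39 (SE 0.14; limma adjusted p = 0.170). Its second probe set had one of -0.26 without overlap, and the remaining probe set, at 8.12 or less, one of 0.01. Skeletal muscle markers differed in the same direction: 4 of 11 fell, 0 rose and the list median was -0.89. Day 1 replicate 3 had the highest Itga7 and the highest muscle median, at 0.67 above the mean of the 6 arrays on the log2 scale, and day 7 replicate 3 the lowest of both, at -0.82. Among day 7 arrays, however, the muscle median was highest on replicate 2 and Itga7 on replicate 1. The part of muscle content in the Itga7 values was not tested.

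Itgb1bp2, which encodes melusin, a muscle protein that binds the tail of the beta 1 subunit, read 1553, 1093 and 1807 on day 1 replicates 1, 2 and 3 and 597, 963 and 571 on day 7. The ages did not overlap, and the replicates numbered 2 lay nearest to each other (log2 change -1.07, SE 0.25; limma adjusted p = 0.0588). Tln2, the talin that is abundant in muscle, had a log2 change of -0.90 (adjusted p = 0.0742) on the probe set that represents it. Its other 2 probe sets, at 10.8 or less, overlapped between the ages, and the mean of the 3 gave -0.29 (adjusted p = 0.166). Tln1, the widely expressed talin, had one of 0.08 (adjusted p = 0.747).

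Itga6 encodes the laminin-binding subunit found on epithelia, endothelium and Schwann cells. It read 337, 307 and 322 on day 1 replicates 1, 2 and 3 and 356, 261 and 479 on day 7. The day 7 arrays lay both above and below the narrow day 1 range (log2 change 0.14, SE 0.20; limma adjusted p = 0.733), and without day 7 replicate 3 the change was -0.08. Its other probe sets, all at 30.4 or less, had log2 changes from 0.35 to 0.53. The Schwann cell markers followed the same order on day 7: the myelin gene Mbp read 1890, 81.1 and 3422 on replicates 1, 2 and 3, against 41.1 to 143 on day 1. The summed intensity of 4 measured Schwann markers of 6 listed was 1731 to 2013 on day 1 and 2130 to 8113 on day 7, with none at 0. Some markers of other cells were also lowest of the day 7 arrays on replicate 2. The endothelial Kdr read 554, 404 and 570 and the adipocyte Adipoq 385, 188 and 477 on replicates 1, 2 and 3. The endothelial Pecam1, Tek, Emcn and Esam were lowest there too. Of the same list, Vwf was highest on day 7 replicate 2 (84.7) and Tie1 was lowest on day 7 replicate 3 (118). The summed intensity of 7 measured endothelial markers of 8 listed was 1683 to 2240 on day 1 and 1929 to 2292 on day 7. That of 6 adipocyte markers was 1474 to 1679 on day 1 and 2608 to 5231 on day 7, and no marker of either list was at 0. The part of nerve, endothelium or fat in the Itga6 values was not tested.

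**Figure D3:**
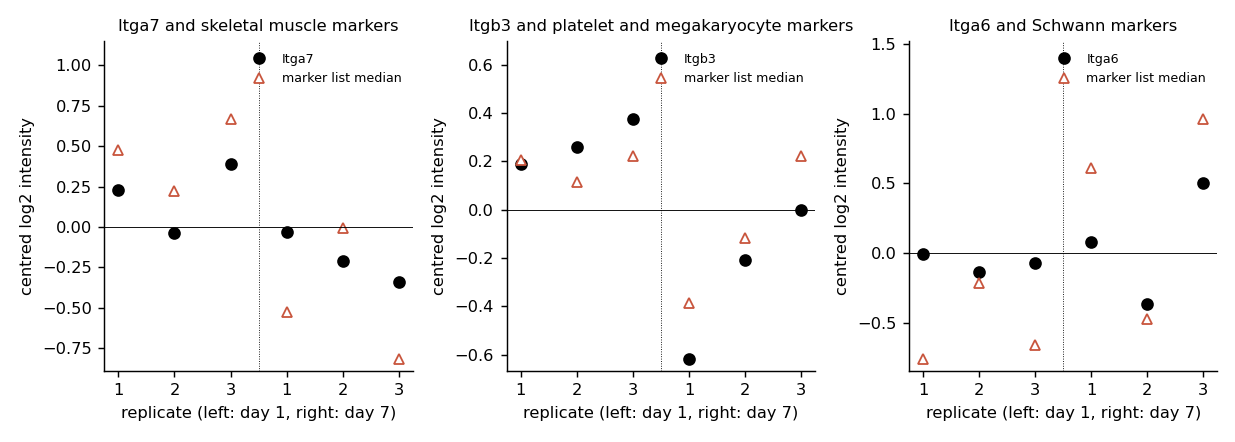
Centred log2 intensity (log2(value + 1) minus the mean of the 6 arrays) of Itga7, Itgb3 and Itga6 (filled circles) beside the median of the muscle, platelet and Schwann marker lists (open triangles), per array. Itga7 and the muscle list are both highest on day 1 replicate 3 and lowest on day 7 replicate 3, and Itga6 and the Schwann list are both highest on day 7 replicate 3. Among day 7 arrays the muscle list is highest on replicate 2 but Itga7 is highest on replicate 1.

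Among 4 other measured beta subunits of 5 listed, Itgb4 rose and Itgb6 fell. Itgb4, which pairs with the Itga6 product alone and is the laminin receptor of hemidesmosomes and of myelinating Schwann cells, read 19.1, 21.5 and 18.0 on day 1 replicates 1, 2 and 3 and 83.3, 45.6 and 70.9 on day 7. It was 3.21-fold higher (log2 change 1.68, SE 0.21; limma adjusted p = 0.0141). Among day 7 arrays the smallest value was on replicate 2. That array was also lowest at that age in Mbp, Kdr and Adipoq, but not in the endothelial Vwf or Tie1. The highest Itgb4 value was on day 7 replicate 1, but the highest Mbp value was on day 7 replicate 3. The call was lost without day 1 replicate 1 (adjusted p = 0.0571) and without day 7 replicate 1 (0.0779) and kept in the other fits that left out 1 array. Day 1 replicate 1, where the epidermal markers were by far the highest, did not stand out in Itgb4. On day 7 the epidermal marker sum was 377, 144 and 152 on replicates 1, 2 and 3, highest where Itgb4 was. The part of nerve, epidermis or other cells in the Itgb4 values was not tested.

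Itgb6, an epithelial partner of the Itgav product, read 78.4, 61.7 and 130 on day 1 replicates 1, 2 and 3 and 27.1, 45.2 and 28.2 on day 7. It fell by 1.37 on the log2 scale (SE 0.29; limma adjusted p = 0.0485). All day 7 arrays were lower, and the highest value was not on the array with the epidermal markers. Itgb6 and the muscle marker median were both highest on day 1 replicate 3 and, among day 7 arrays, on replicate 2. They differed in the order of day 7 replicates 1 and 3. The part of epidermis or muscle in the Itgb6 values was not tested. When 1 array was left out the adjusted p ran from 0.0403 to 0.170, and the call was kept without either array numbered 2. Of 10 measured other alpha subunits among 13 listed, none was called. The smallest adjusted p was that of Itga9 (log2 change 0.65, adjusted p = 0.0841), then Itgad and Itga3 (0.32 and 0.38, adjusted p = 0.244 and 0.269).

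Of 12 laminin and type IV collagen chains measured among 13 listed, Lama3 rose and Lama2 fell, with a median log2 change of -0.04. Lama2, the alpha chain of muscle and nerve basement membrane and a ligand of the Itga7 receptor, read 502, 502 and 488 on day 1 replicates 1, 2 and 3 and 337, 335 and 282 on day 7. The day 1 arrays were close together and all above day 7 (1.57-fold lower, log2 change -0.65, SE 0.11; limma adjusted p = 0.0293). Lama3, the alpha chain of epithelial laminins that Itga6 receptors bind, read 24.4, 26.3 and 24.4 on day 1 replicates 1, 2 and 3 and 43.2, 47.5 and 37.7 on day 7, a rise of 0.75 on the log2 scale (SE 0.12; limma adjusted p = 0.0243). Without 1 array the adjusted p ran from 0.0465 to 0.109 for Lama2, with the call kept without day 7 replicate 2. For Lama3 it ran from 0.0403 to 0.110, with the call kept in the fits that left out an array numbered 2 or day 7 replicate 3.

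Of 12 other matrix receptors measured among 15 listed, 1 was called, Sdc1, which rose, and the median log2 change was -0.09. Sdc1, the heparan sulfate proteoglycan syndecan 1, read 263, 305 and 188 on day 1 replicates 1, 2 and 3 and 804, 531 and 436 on day 7, 2.31-fold higher (log2 change 1.21, SE 0.25; limma adjusted p = 0.0471). Its other probe set had a log2 change of 1.29 (adjusted p = 0.0745). The call was lost without any 1 array (adjusted p from 0.0510 to 0.136).

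Inside the cell, none of 19 measured genes of the talin, kindlin and ILK complex among 20 listed was called (median log2 change -0.01). The kindlin Fermt2 had a log2 change of -0.03 (SE 0.10) and Ilk, the integrin-linked pseudokinase, one of -0.26 (adjusted p = 0.210). The parvin Parva, which binds Ilk, had one of 0.31 (adjusted p = 0.197), but its other probe set gave 0.02 with overlap and the mean of both 0.17. Of 30 focal adhesion kinases and scaffolds measured among 31 listed, 1 was called, Zyx, which fell, and the median was -0.09. Zyx, the actin-regulating protein zyxin of mature focal adhesions, read 370, 394 and 466 on day 1 replicates 1, 2 and 3 and 248, 263 and 230 on day 7. The ages were well apart (1.65-fold lower, log2 change -0.72, SE 0.12; limma adjusted p = 0.0293). The call was kept without day 1 replicate 2 or day 7 replicate 2, with adjusted p from 0.0454 to 0.117 without 1 array.

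Over all 110 measured genes of these related lists, of 122 listed, 4 rose and 3 fell. That is 6.36%, beside 5.08% of all genes, and is no more than a description. The count was 0 without day 1 replicate 1 or day 7 replicate 1, 1 without day 1 replicate 3 and 2 without day 7 replicate 3. It was 8 without day 1 replicate 2 and 9 without day 7 replicate 2.

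**Figure D4:**
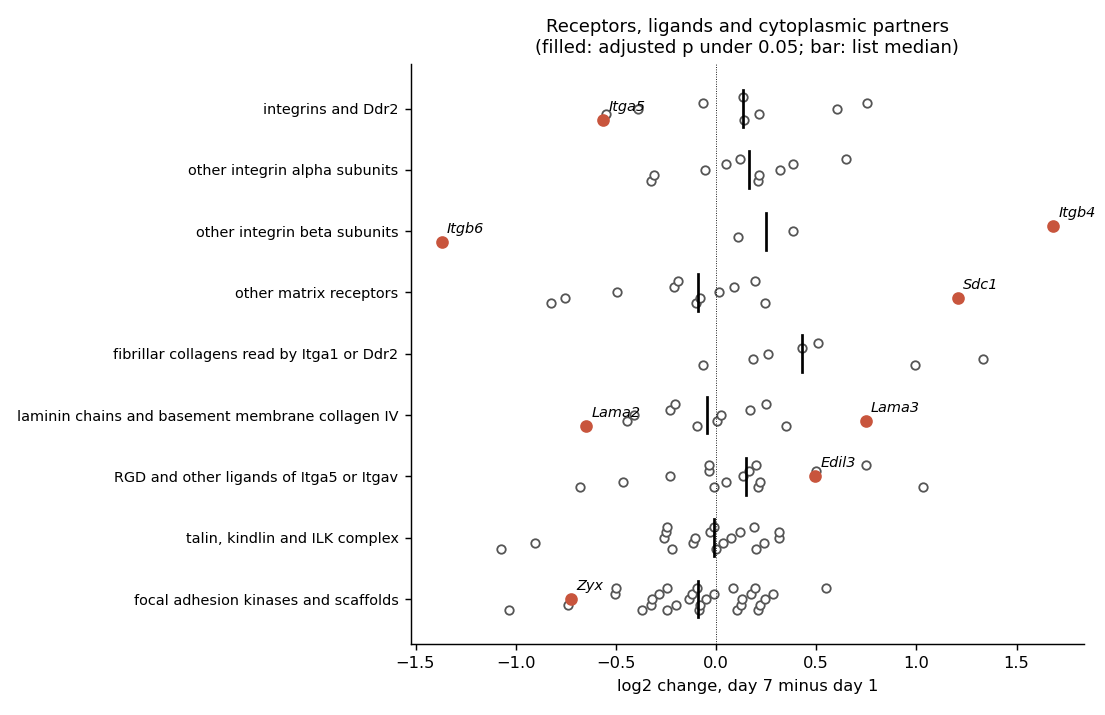
Log2 change (day 7 minus day 1) of each measured gene of the receptors and of 8 related lists. Filled points passed an adjusted p under 0.05 and are named, open points did not, and the vertical bar is the list median. Itgb4, Sdc1, Lama3 and Edil3 lie to the right and Itgb6, Zyx, Lama2 and Itga5 to the left.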

How the data were processed

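Tendon RNA was hybridised to 6 Affymetrix rat arrays. The deposited table gives an intensity for each probe set on each array, as linear values. MAS5 and RMA are named in the submitters' processing notes with no role, and how background and scale were handled is not stated. The analysis used log2(value + 1) of the deposited values without another normalization. Controls (57 of 31099 probe sets) were dropped. The platform annotation gave 1 gene symbol to 20826 of the others, several to 436 and none to 9780. A gene was read from its brightest probe set by mean log2 value.

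The ages were compared with limma 3.58.1 in R 4.3.3 (lmFit, eBayes, two-sided), and p-values were adjusted by Benjamini-Hochberg across 31042 probe sets, with a threshold of 0.05. SE is moderated and intervals are 95%. The code was tested on simulated data. Each array holds a pool, so the p-values set the age difference against the spread between pools. The labels do not say how animals were pooled. With 3 arrays an age the precision is limited, and signals near the trp controls (3.74 to 4.76) have no reliable fold.

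The members and lists were chosen with earlier results of these data known. Named genes were the 9 receptors, the called genes of each related list or else its 3 smallest adjusted p-values, and, for the called receptor, the 3 nearest profiles. Fn1, Tln1, Fermt2 and Ilk were named in addition after their values were seen. Mkx, Kera and other listed genes without a probe set of their own were not analysed here. Alternatives were quantile normalization, median centring, a pseudocount of 16, a filter on low probe sets, the mean of probe sets, an intensity trend, array weights, a replicate block, and fits without 1 array or without both arrays numbered 2.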

Additional observations from a re-analysis of the deposited data

How the results depend on the processing

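The call of Itga5 was kept with median centring, the filter on low probe sets, the mean of probe sets and array weights. The number of receptors called lower, 1 on the deposited values, was 0 with quantile normalization, a pseudocount of 16, an intensity trend, the replicate block and without both arrays numbered 2, and 0 in each fit without 1 array. The number called higher, 0 on the deposited values, was 1 (Ddr2) with quantile normalization, the filter on low probe sets, an intensity trend, array weights and without both arrays numbered 2, and 0 to 1 without 1 array. Signs held in all alternatives for 7 receptors. The log2 change of Itgb1 turned to 0.0224 with quantile normalization, and that of Itga6 was -0.0772 without day 7 replicate 3, the lowest of the fits without 1 array (highest 0.36). The 7 calls of the related lists became 11 with the filter on low probe sets, 12 with the mean of probe sets or an intensity trend, 19 with array weights and 0 with the replicate block, and ran from 0 to 9 without 1 array. Over all genes, 274 higher and 448 lower calls became 538 and 897 with array weights, 25 and 8 with the replicate block, and 4 to 271 and 0 to 382 without 1 array. Same-numbered arrays did not deviate together (correlations 0.05, -0.25 and -0.14). With 3 arrays an age these correlations cannot decide whether the numbers pair the pools, so the calls lost under the block stand as reported. The cause of these changes was not tested. Signal over background limits Edil3 and the weaker probe sets of Itga6, Itga7 and Itgb5.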

Other observations

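Other genes around the receptors lay just short of the threshold, and were picked after their values were seen. Pxn, the focal adhesion scaffold paxillin, read 444, 453 and 452 on day 1 replicates 1, 2 and 3 and 340, 330 and 286 on day 7, a log2 change of -0.50 (SE 0.11; limma adjusted p = 0.0518). Cd44, the hyaluronan receptor, read 222, 188 and 222 on day 1 and 102, 163 and 116 on day 7, without overlap (log2 change -0.75, SE 0.18; adjusted p = 0.0636). Lamb1, the laminin beta 1 chain, had a log2 difference of -0.44 (adjusted p = 0.0756). Tgfbi, a matrix protein that binds integrins, read 1644, 2367 and 1093 on day 1 and 3558, 3279 and 3138 on day 7, without overlap (log2 difference 1.03, SE 0.25; adjusted p = 0.0657).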
